A study of Arabidopsis thaliana with 8 samples.

Results

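The heat response of prp43a seedlings was described over 18986 genes, those with at least 1 TPM (a transcript share, scaled to a fixed total per library) in at least 2 of the 4 prp43a libraries. The deposited table held 27655 gene rows. Of the members, 16060 reached 1 TPM in all 4 libraries, 833 did so in the control pair alone and 900 in the heat pair alone. A gene of the latter 2 kinds entered through the group in which it was high, so its difference is partly a consequence of the rule. Another 1019 members reached 1 TPM in 3 libraries, and 174 reached it in 1 control and 1 heat library alone. At the edge of the rule, the second-highest TPM was 1.001 for the lowest gene inside and 0.9994 for the highest gene outside. Of the 8669 rows outside, 5066 were listed at 0 in all 4 libraries.

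The seedlings were Arabidopsis thaliana of the Columbia accession (Col-0), grown on Murashige and Skoog agar with sucrose at 22 °C in long days (16 h light, 8 h dark). The mutant is a T-DNA insertion line of the allele prp43a-1, and no second allele stands beside it. Heat-treated seedlings were held at 38 °C for 16 h at 7 days of age, and control seedlings of both genotypes stayed untreated. Whole seedlings were extracted, with 2 biological replicates in each of 4 groups: prp43a control, prp43a heat, wild-type control and wild-type heat. The labels name no clock time for the harvests, so time of day and heat cannot be told apart where control and heat libraries differ.

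Heat unfolds proteins, and plant cells answer through heat shock factors, transcription factors that switch on genes of molecular chaperones. Small heat shock proteins hold unfolded proteins in a state from which the ATP-driven HSP70 and HSP101 chaperones can refold them, while HSP90 matures signalling proteins. PRP43, known best from yeast, is a DEAH-box RNA helicase that takes the spent spliceosome apart after splicing and also acts in ribosome assembly; the disassembly step is the one named in the title of the study.

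The genotype label was checked at AT3G62310, the PRP43a locus (chromosome 3, TAIR10.1, 23057240 to 23060731). It stood at 1.68 and 1.44 TPM in the prp43a control libraries and at 10.3 and 8.24 TPM in the prp43a heat libraries. Wild type had 26.7 and 29.8 TPM in control and 64.6 and 72.4 TPM after heat, so every prp43a library lay below every wild-type library. The residual transcript rose with heat in prp43a (log2 fold change 2.00, SE 0.162, limma adjusted p = 2.29e-06), against a log2 fold change of 1.25 in wild type, and the test of the difference between the responses gave a limma adjusted p of 0.705. The second PRP43-like helicase locus, AT2G47250, went from 49.8 and 54.1 TPM to 100.8 and 103 TPM in prp43a, a log2 fold change of 0.96, and its log2 fold change in wild type was 1.47. Control and heat values of both loci did not overlap in prp43a.

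Library depth, worked back from the steps between low TPM values, ran from 4071027 to 4783626 reads (or pairs) and was lowest in the prp43a heat libraries (4071027 and 4126489). At 10 TPM a gene with 1500 bases of exon rested on 37.0 to 44.7 reads, so values of a few TPM are coarse. Replicates correlated at r = 0.984 and 0.985 within the prp43a groups, and prp43a control against prp43a heat libraries at r = 0.753 to 0.760 across genes.

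Heat changed most of the transcriptome of prp43a. Of the members, 8426 rose and 5234 fell, and 5326 were not called (limma on log2(TPM + 1), Benjamini-Hochberg adjusted p below 0.05). The background over all 19697 genes tested was 70.1% called, 43.1% higher and 27% lower; over the members it was 71.9%, 44.4% and 27.6%. Control and heat values did not overlap for 16511 members, 87% of them, against 85.8% of all genes tested. A log2 fold change of at least 1 in size was called higher for 4948 members and lower for 3310, and one of at least 4 higher for 200 and lower for 103. The median member had a log2 fold change of 0.29, and from the 5th to the 95th percentile the values ran from -2.19 to 2.23. The median gene tested stood at 0.28, which median-of-ratios scaling moved to -0.01. The share of calls that were higher was 61.5% on the TPM scale, 49.2% after median-of-ratios scaling and 52.0% after quantile normalization. A small rise is therefore read below against a median of 0.28, and each count over a gene list against 43.1% higher and 27% lower.

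The largest rises were those of small heat shock proteins, of which 17 of 18 members rose, with a median log2 fold change of 7.80 beside 0.29 for all members. ATHSP22.0, the small heat shock protein of the endoplasmic reticulum, had 1.62 and 0.694 TPM in the control libraries and 6069 and 6063 TPM after heat (log2 fold change 11.49, SE 0.218, limma adjusted p = 3.2e-10). HSP21, the chloroplast member of the family, went from 2.39 and 2.19 TPM to 5104 and 4586 TPM (log2 fold change 10.52, SE 0.105). Its mitochondrial counterpart HSP23.6-MITO went from 0.3203 and 0.685 TPM to 1718 and 1707 TPM, a log2 fold change of 10.17. Each compartment was thus represented among the 4 highest members of the list, and all 4 were low in both control libraries and high in both heat libraries. Of the 18 members, 2 reached 1 TPM in the heat pair alone, HSP23.6-MITO among them.

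Cytosolic members followed the same course. AT1G53540 rose from 2.24 and 0.797 TPM to 3480.1 and 3523 TPM, HSP17.4 from 4.48 and 6.701 to 6919.8 and 6909 TPM, and HSP18.2 from 10.6 and 11.01 to 9488 and 9827 TPM. AT2G29500 stood at 8.901 and 7.14 TPM in control and 6324 and 6798 TPM after heat, and HSP17.6II, of the class II group, at 3.81 and 3.26 TPM in control and 3175 and 3378 TPM after heat. Their log2 fold changes were 10.505 for AT1G53540, 10.06 for HSP17.4, 9.67 for HSP18.2, 9.51 for AT2G29500 and 9.499 for HSP17.6II. After heat HSP18.2 was the second most abundant nuclear transcript of prp43a seedlings by mean TPM, behind RBCS1A, a small subunit of Rubisco, at 9605 and 12833 TPM. The 18 genes together held 0.0208% and 0.0194% of all TPM in the control libraries and 4.62% and 4.64% after heat. The one member of the list that fell was AT4G21870, from 80.7 and 85.9 TPM to 27.1 and 22.4 TPM (log2 fold change -1.72, limma adjusted p = 1.07e-05).

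**Figure D1:**
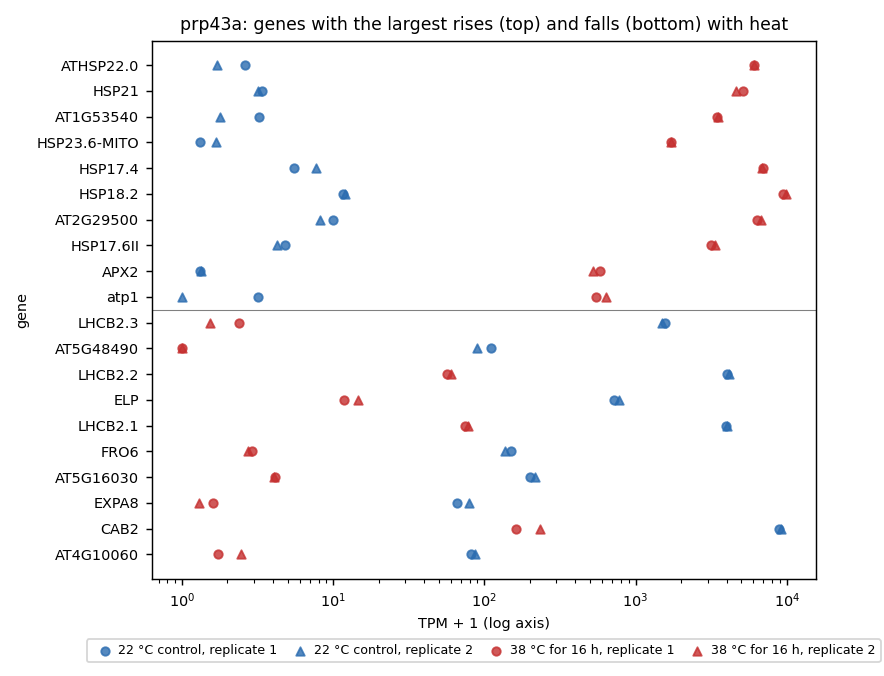
TPM + 1 on a log axis in the 4 prp43a libraries, for the 10 genes with the largest rises (top) and the 10 with the largest falls (bottom); blue marks control and red marks heat, with circles for replicate 1 and triangles for replicate 2. Control and heat symbols stand apart for each of the 20 genes because only genes without overlap were chosen. The 2 replicates of a group lie close together except where a value is near 0.

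The promoters of 4 of these heat-induced genes are printed because heat shock factors are known to bind inverted repeats of the unit GAA, and the sequences differ in how many such repeats they hold. Each runs 5′ to 3′ and ends at the base before the annotated gene start, read from the TAIR10.1 genome and cut short where an exon of a neighbouring gene begins. Capitals mark heat shock elements (GAANNTTC or TTCNNGAA, which can overlap) and site II motifs (TGGGCC or its other strand GGCCCA). ATHSP22.0 is read from the plus strand at chr4:6370088-6370337, HSP21 from the minus strand at chr4:13819972-13820221, AT1G53540 from the plus strand at chr1:19980126-19980298 and HSFA2, a heat-induced heat shock factor, from the plus strand at chr2:11135466-11135623.
ATHSP22.0: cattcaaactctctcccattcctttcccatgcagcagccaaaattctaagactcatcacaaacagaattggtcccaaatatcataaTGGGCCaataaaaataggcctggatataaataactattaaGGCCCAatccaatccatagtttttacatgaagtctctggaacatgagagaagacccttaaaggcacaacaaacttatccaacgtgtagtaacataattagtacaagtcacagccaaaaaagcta
HSP21: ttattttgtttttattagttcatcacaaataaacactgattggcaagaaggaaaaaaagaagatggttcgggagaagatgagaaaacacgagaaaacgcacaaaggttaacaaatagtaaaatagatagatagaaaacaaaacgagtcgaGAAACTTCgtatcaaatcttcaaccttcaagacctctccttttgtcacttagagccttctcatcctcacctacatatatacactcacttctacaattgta
AT1G53540: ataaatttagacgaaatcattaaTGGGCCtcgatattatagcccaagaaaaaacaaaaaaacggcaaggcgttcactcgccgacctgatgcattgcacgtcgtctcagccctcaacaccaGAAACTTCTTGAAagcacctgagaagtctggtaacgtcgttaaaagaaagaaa
HSFA2: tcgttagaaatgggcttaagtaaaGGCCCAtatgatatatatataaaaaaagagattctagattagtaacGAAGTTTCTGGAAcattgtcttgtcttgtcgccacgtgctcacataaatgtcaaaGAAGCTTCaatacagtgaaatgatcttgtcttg
The HSFA2 and AT1G53540 sequences each hold a 3-unit element, in which GAANNTTC is followed by NNGAA and which starts 88 bases before the gene in HSFA2 and 53 bases before it in AT1G53540. The HSP21 sequence holds 1 element of 2 units, and the ATHSP22.0 sequence holds none in this window. Site II stands in 3 of the 4 sequences, not in that of HSP21. The promoters of HSP23.6-MITO and HSFA3 were chosen by the same rule and are not printed. The 250 bases of HSP23.6-MITO hold site II but no heat shock element. Only 33 bases before HSFA3 lay clear of a neighbouring exon, and they hold neither motif.

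Among all 18834 members with a 250-base window, 78 promoters (0.414%) held the 3-unit heat shock element on either strand. It stood in 2 of 34 promoters (5.88%) of nuclear members called with a log2 fold change of at least 6, in 3 of 109 (2.75%) between 4 and 6, and in 10 of 1088 (0.919%) between 2 and 4. The share was 0.381% of the 7085 between 0 and 2, 0.453% of the 5297 members not called, 0.272% of the 4039 with a log2 fold change between -2 and 0, and 0.0927% of the 1079 between -4 and -2. None of the 103 below -4 had it. The share was higher in the classes that rose most, on counts of 2, 3 and 10 promoters. Of the 34 genes in the highest class, 11 were nuclear copies of mitochondrial sequence, described below. Their reads cannot be told apart from mitochondrial ones, so that class mixes unlike genes. The 2-unit element was far more common, in 16% of all promoters, and its share ran from 12.6% to 26.5% across the same classes. By list, 2 of 18 small heat shock protein promoters, 3 of 19 of heat shock factors and 2 of 6 of DREB2 and galactinol genes held the 3-unit element.

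**Figure D2:**
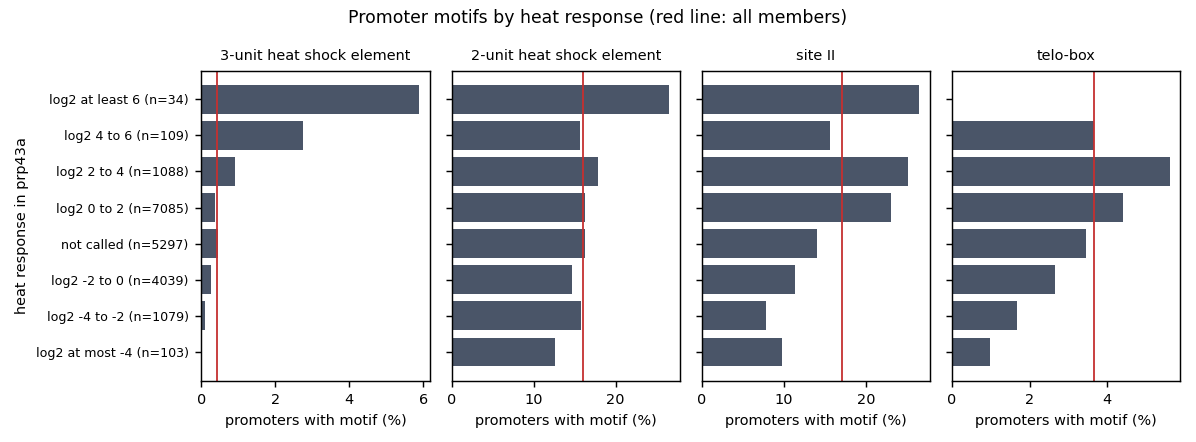
Share of promoters (%, 250 bases before the gene start, either strand) that hold each of 4 motifs, by class of heat response in prp43a (called members by log2 fold change, with the number of promoters in brackets); red lines mark the share over all members. The 3-unit heat shock element reaches 5.88% in the highest class and is absent from the lowest, and site II and the telo-box are more frequent among genes that rose by 0 to 4 than among genes that fell.

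All 33 members of the list of HSP70, HSP90 and HSP101 chaperones and co-chaperones rose, with a median log2 fold change of 2.88 and a range of 0.80 to 7.35. AT5G48570, a peptidyl-prolyl isomerase of the FKBP family, went from 25.1 and 22.4 TPM to 4180.2 and 3873 TPM (log2 fold change 7.35, SE 0.0919, limma adjusted p = 3.23e-11). Hop3, which hands clients from HSP70 to HSP90, went from 8.01 and 8.57 TPM to 635 and 616 TPM. HSP90.1, the heat-induced cytosolic HSP90, went from 25.5 and 21.2 TPM to 1478 and 1257 TPM (log2 fold change 5.81).

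Members of the HSP90 and HSP70 families differed in how far they rose. HSP81-2 and HSP81-3, cytosolic HSP90 genes beside HSP90.1, had log2 fold changes of 1.91 and 0.80. Among HSP70 genes, HSP70T-2 rose by 5.10 and HSP70 by 5.06 on the log2 scale, while HSC70-1, the abundant constitutive gene, rose from 977 and 898 TPM to 2483 and 2666 TPM, a log2 fold change of 1.46. HSP101, the disaggregase on which acquired heat tolerance depends, rose from 10.7 and 8.01 TPM to 205 and 172 TPM, and HSA32, known for prolonging that tolerance, from 7.55 and 11.3 TPM to 351 and 339 TPM. Organellar chaperones were included: the mitochondrial MTHSC70-2 had a log2 fold change of 4.06 and the chloroplast cpHsc70-1 one of 2.22. The list held 0.388% and 0.373% of TPM in control and 2.50% and 2.41% after heat.

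Of 22 loci, heat shock factors and the coactivator MBF1C, 19 were members. Of these, 14 rose, none fell and 5 were not called (median log2 fold change 1.41). Among the 19, 2 reached 1 TPM in the heat pair alone, so the rule partly fixed their direction. HSFA3, known as a target of DREB2A, rose from 3.49 and 2.76 TPM to 155 and 154 TPM (log2 fold change 5.24, SE 0.129, limma adjusted p = 1.26e-09). HSFA2, which sustains the response under long heat, rose from 3.22 and 3.06 TPM to 81.2 and 79.8 TPM (log2 fold change 4.30). HSFA8 rose from 0.976 and 2.09 TPM to 33.5 and 31.7 TPM and HSF4, a repressor of the class B group also called HSFB1, from 11.9 and 10.7 TPM to 132 and 106 TPM. The class A1 factors, regarded as the early regulators, changed less: HSF1 (HSFA1A) had a log2 fold change of 1.51, HSFA1D of 1.41, HSF3 (HSFA1B) of 0.92 and HSFA1E of 2.58. The uncalled members were AT-HSFA5, HSFA7A, HSFB2A, AT-HSFB2B and HSFB4, whose log2 fold changes lay between -0.04 and 0.55.

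Genes of the unfolded protein response of the endoplasmic reticulum rose in 17 of 20 members, with a median log2 fold change of 1.55. ATERDJ3A, an HSP40 of that compartment, went from 3.75 and 3.34 TPM to 77.5 and 64.1 TPM (log2 fold change 3.98), and BIP2, an HSP70 of that compartment, from 121 and 117 TPM to 809 and 819 TPM. PDIL2-2, a protein disulfide isomerase, and CNX1, the calnexin, had log2 fold changes of 2.78 and 2.45. BIP3, usually the most stress-responsive BiP gene, was not called, at 1.11 and 1.52 TPM in control and 0.381 and 0.937 TPM after heat. CRT3, a calreticulin that serves receptor kinases, was called lower at a log2 fold change of -0.31, a call lost when any 1 of the 4 prp43a libraries was left out. The endoplasmic reticulum stress element, CCAAT and CACG with 10 bases between them, stood in 4 of 20 promoters of the list and in 0.876% of all.

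Protein turnover genes moved the same way in most members. Of 27 proteasome subunits, 23 rose (median log2 fold change 1.08) and 1, PAE2, was called lower, a call lost without any single prp43a library; the rise was led by AT1G04810, which went from 25.02 and 26.5 TPM to 152 and 147 TPM, and PBD2, which went from 36.6 and 32.4 TPM to 157 and 158 TPM. Among 10 autophagy genes, 8 rose, including the cargo receptor NBR1 (log2 fold change 1.66) and ATG8D, a ubiquitin-like coat protein of the autophagosome (2.85). The 2 that fell were the ATG8 isoforms most abundant in control: ATG8E went from 112 and 114 TPM to 37.2 and 37.4 TPM and ATG8F from 82.5 and 87.8 TPM to 17.2 and 15.8 TPM.

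Of 15 reactive oxygen enzymes, 8 rose and 4 fell, or 2 fell without prp43a control replicate 1. The shares, 53.3% and 26.7%, lie near the 43.1% and 27% of all genes tested. APX2, a cytosolic ascorbate peroxidase known as a heat shock factor target, went from 0.314 and 0.336 TPM to 579.8 and 522 TPM (log2 fold change 8.70, SE 0.163, limma adjusted p = 3.2e-10). Among the 15, only APX2 reached 1 TPM in the heat pair alone. The catalases split: CAT1 rose from 34.8 and 39.7 TPM to 114 and 98.2 TPM, whereas CAT2_2, the main catalase of photorespiration, fell from 1013 and 950.2 TPM to 417 and 472 TPM, and CAT3_1 fell from 452 and 500.5 TPM to 213 and 172 TPM. The median log2 fold change of the list, 0.35, was close to the 0.28 of all genes tested.

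Photosynthesis genes of the nucleus fell. All 20 light-harvesting members fell (median log2 fold change -2.46), as did all 21 photosystem subunits (-2.24), against 27% of genes tested. LHCB2.3, an antenna protein of photosystem II, went from 1559 and 1489 TPM in control to 1.38 and 0.543 TPM after heat (log2 fold change -9.63, SE 0.33, limma adjusted p = 7.84e-09). Its relatives LHCB2.2 and LHCB2.1 went from 4029 and 4136 TPM to 55.3 and 59.6 TPM and from 3949 and 4019 TPM to 72.9 and 76.4 TPM. CAB2, an LHCB1 gene, went from 8832 and 9115 TPM to 162 and 234 TPM. Heat values of these 4 genes lay far below every control value.

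The fall was uneven within the antenna family. LHCB4.1 (CP29) and LHCA3 fell least, with log2 fold changes of -1.21 and -1.28, and CAB1, the most abundant antenna transcript in control, stood between the extremes at -2.67. Exons of the LHCB2 and LHCB1 genes share stretches: 19.1% of the 75-base windows of LHCB2.2, 15.3% of those of LHCB2.1 and 10.4% of those of CAB2 occur exactly in another gene, so a part of their reads cannot be told apart between relatives. In bulk tissue, fewer green cells and less of these RNAs per cell cannot be told apart. Light-harvesting genes held 10.2% and 10.4% of all TPM in the control libraries and 1.69% and 1.92% after heat.

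Among photosystem subunits, PSAD-2 fell most, from 1459 and 1446 TPM to 90.3 and 73.3 TPM (log2 fold change -4.14), followed by PSAN at -4.06, PSAH2 at -3.93 and PSAO at -3.92, all of photosystem I. Its paralog PSAD-1 fell by less, at -2.89. The smallest falls were those of PSAE-2, from 896 and 986 TPM to 766 and 733 TPM, and of PSBR of photosystem II, at -0.51.

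Carbon fixation followed with a smaller median, -1.23, and 17 of 18 members fell. RCA, the activase that keeps Rubisco working and is itself heat-labile, fell from 11119 and 10853 TPM to 1821 and 2096 TPM (log2 fold change -2.49, SE 0.0953). CP12-2, a redox regulator of the Calvin cycle, fell from 598 and 561 TPM to 54.7 and 54.4 TPM, and SBPASE, a bisphosphatase of the cycle, from 1423 and 1363 TPM to 194 and 233 TPM. The 4 genes of the Rubisco small subunit differed in their log2 fold changes: RBCS1A -0.76, RBCS3B -0.84, RBCS2B -1.92 and RBCS1B -2.41. RBCS1A remained the most abundant nuclear transcript after heat, at 9605 and 12833 TPM, which the replicates placed less precisely than most. TIM, a plastid triose phosphate isomerase, rose with a log2 fold change of 0.54, a call lost after median-of-ratios scaling.

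**Figure D3:**
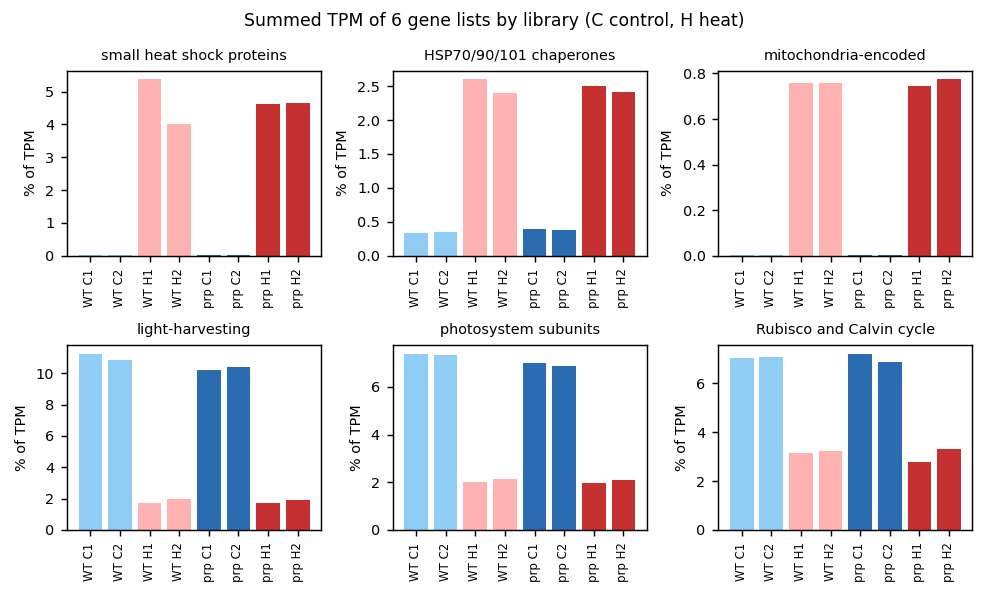
Summed TPM of 6 gene lists as a share of all TPM (%) in each of the 8 libraries; light bars are wild type, dark bars prp43a, blue control (C) and red heat (H). Small heat shock proteins go from 0.0208% and 0.0194% to 4.62% and 4.64% in prp43a and light-harvesting genes from 10.2% and 10.4% to 1.69% and 1.92%; heat bars of both genotypes lie at like heights.

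Chlorophyll synthesis genes fell in 12 of 15 members (median log2 fold change -1.32) and rose in 1, GSA2, a call lost without control replicate 1, without heat replicate 2 or after median-of-ratios scaling. GUN4, an activator of magnesium chelatase, went from 295 and 302 TPM to 24.1 and 25.5 TPM, and CH1, the oxygenase that makes chlorophyll b, from 296 and 298 TPM to 43.4 and 42.1 TPM. GUN5, a magnesium chelatase subunit, and CRD1, a cyclase subunit, had log2 fold changes of -2.42 and -2.07. PORB, which reduces protochlorophyllide, was not called, with 233 and 272 TPM in control and 209.7 and 239.9 TPM after heat.

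Breakdown and senescence genes gave no common direction: 5 of 9 rose and 3 fell on the TPM scale (median log2 fold change 0.30), and 1 rose and 3 fell after median-of-ratios scaling (median -0.01). Without prp43a control replicate 1 or without control replicate 2 the number that rose was 3, and without heat replicate 1 it was 1. PPH, the pheophytinase, rose from 29.6 and 33.5 TPM to 111 and 98.2 TPM (log2 fold change 1.70). NYE1, the magnesium dechelatase that starts the breakdown, fell from 22.4 and 19.3 TPM to 14.2 and 13.3 TPM. Of the 9 members, 1 reached 1 TPM in the heat pair alone. SAG13 fell on few reads, from 2.21 and 4.72 TPM to 1.18 and 0.291 TPM (limma adjusted p = 0.0225), a call lost without control replicate 2 (adjusted p = 0.170) or without heat replicate 2 (0.178).

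Transcripts assigned to the mitochondrial genome held 0.00337% and 0.00365% of TPM in the control libraries and 0.744% and 0.774% after heat, summed over all 122 mitochondrial rows. Of these rows 97 were members, and 78 of the 97 reached 1 TPM in the heat pair alone, so the rule itself fixed most of their direction; 3 reached it in all 4 libraries. For that reason the count of 96 higher and the median log2 fold change of 4.72 are a description only. Transcripts of plant mitochondria carry poly(A) tails mainly as a mark for degradation, and the library kit selects poly(A), so the values count only RNA that passed that selection. The gene of the ATP synthase alpha subunit, atp1, went from 2.203 and 0 TPM to 548 and 638 TPM (log2 fold change 8.37, SE 0.463, limma adjusted p = 1.59e-07). The cytochrome oxidase genes cox2 and cox1 went from 0.429 and 0.458 TPM to 466 and 414 TPM and from 1.27 and 0 TPM to 369 and 395 TPM. The locus ATMG00410 (gene:ATMG00410) was listed at 0 in both control libraries and stood at 269 and 259 TPM after heat.

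Arabidopsis chromosome 2 carries a large copy of the mitochondrial genome near its centromere, and genes annotated there were high in the same libraries. Of the nuclear members, 70 had more than 50% of their 75-base exon windows in the mitochondrial genome; 69 of them lay on chromosome 2, and 62 reached 1 TPM in the heat pair alone, so that their count of 68 higher and their median log2 fold change of 4.10 are likewise a description. AT2G07734, described as a ribosomal protein, was listed at 0 in both control libraries and stood at 166 and 139.7 TPM after heat, and 98.9% of its windows are found in the mitochondrial genome. RPS7_1 went from 0.854 and 0 TPM to 52.9 and 47.9 TPM, with 100% of its windows found there. Reads of such genes cannot be told apart from mitochondrial ones. Among the 59 members that rose by at least 6 on the log2 scale, 25 were mitochondria-encoded, 11 were such nuclear copies and 11 were small heat shock proteins of the list, which left 12 others.

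Those 12 others included APX2, AT5G48570 and Hop3, described above. AT1G01940 and AT2G21130, both annotated as cyclophilins, went from 15.7 and 10.6 TPM to 1073 and 1129 TPM and from 4.34 and 2.32 TPM to 282 and 274 TPM. AT5G23240, a DNAJ protein, went from 0.784 and 0.838 TPM to 175 and 133 TPM. AT1G48720, described as a Copia-like retrotransposon polyprotein, went from 0.4605 and 0 TPM to 203 and 187 TPM. Others were CUL2, annotated as a cullin and so a scaffold of ubiquitin ligases, from 0.135 and 0 TPM to 96.9 and 106 TPM, and AT2G01008, from 0 and 0.896 TPM to 311 and 378 TPM. AT3G41762, AT2G18193 and SRO3 made up the 12. Of these genes, APX2, AT5G23240, AT1G48720, CUL2, AT2G01008 and SRO3 reached 1 TPM in the heat pair alone. For them the rule partly fixed the direction.

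The 54 chloroplast-encoded members of 88 rows moved in both directions, with 13 higher (24.1%), 13 lower (24.1%) and 28 not called. Of all genes tested, 43.1% were higher and 27% lower. Only 24 of the 54 reached 1 TPM in all 4 libraries, while 7 did so in the heat pair alone and 5 in the control pair alone. For the latter 2 kinds the rule itself partly fixed the direction. These values, too, count only RNA that passed the poly(A) selection. All 4 genes of the plastid-encoded RNA polymerase were members and fell, each from at most 10.5 TPM. Of these, rpoB went from 10.01 and 10.5 TPM to 0.378 and 0.742 TPM and rpoC1 from 5.09 and 7.204 TPM to a listing at 0 in both heat libraries. The other 2 went from 2.36 and 3.22 TPM to 0.294 and 0 TPM for rpoC2 and from 3.05 and 2.18 TPM to 1.23 and 0.804 TPM for rpoA (limma adjusted p = 0.0296). The photosystem II subunit gene psbK went from 3.61 and 0 TPM to 50.1 and 59.9 TPM and the ribosomal protein gene rpl33 from a listing at 0 in both control libraries to 6.05 and 7.92 TPM. Of these genes, rpoB, rpoC1 and rpoC2 entered through the control pair alone and rpl33 through the heat pair alone. The list median was 0.19 on the TPM scale and -0.02 after median-of-ratios scaling, and the sum stayed between 0.0255% and 0.0374% of TPM in all prp43a libraries.

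Splicing genes rose broadly. Of 53 spliceosome components, 49 rose and 1 fell (median log2 fold change 1.30). All 7 members of the list of spliceosomal DEAH helicases and disassembly partners rose (median 1.05). The 7 include the mutated PRP43a locus AT3G62310, whose residual transcript had the largest log2 fold change among them, 2.00. EMB2770, the PRP6-like protein STA1 of the tri-snRNP, went from 17.5 and 19.9 TPM to 183 and 176 TPM (log2 fold change 3.20, SE 0.0963, limma adjusted p = 4.13e-09). The Sm-ring genes AT3G62840 and SMB went from 115 and 120.2 TPM to 838 and 825 TPM and from 18.3 and 22.1 TPM to 137 and 140.1 TPM. LIS, a PRP4-like protein, had a log2 fold change of 2.57. The one that fell was EMB2816, an Sm-like LSM7 protein, from 49.6 and 59.8 TPM to 31.4 and 33.4 TPM.

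Among the helicases, EMB3011, the PRP16 counterpart, went from 24.1 and 30.1 TPM to 70.6 and 76.05 TPM, and ESP3, the PRP2 counterpart, from 20.8 and 24.1 TPM to 45.8 and 48.8 TPM. STIPL1 and ILP1_2, counterparts of the partners that bring PRP43 to the spliceosome, had log2 fold changes of 1.12 and 0.95, beside 1.10 and 0.85 in wild type. AT3G26560, the PRP22 counterpart, had 0.72. Of their 7 promoters, 6 held site II (TGGGCC), beside 17.1% of all promoters, and 25 of 53 spliceosome promoters held it.

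Splicing regulators of the SR family and related proteins rose in 21 of 27 members and fell in 1 (median log2 fold change 1.03). GRP7, a glycine-rich RNA-binding protein under clock control, went from 104 and 85.05 TPM to 3189.6 and 3241 TPM (log2 fold change 5.08, SE 0.122). SR30 went from 42.4 and 45.4 TPM to 289.8 and 286 TPM and SR45a, known as stress-induced, from 33.2 and 33.9 TPM to 127 and 119 TPM. SR30 and SR45a are themselves known to be spliced in several ways, and gene-level TPM does not separate productive from unproductive forms. RSZ22, at 39.2 and 39.6 TPM in control and 41.3 and 37.5 TPM after heat, and 4 other members were not called. PTB3 was called lower (-0.37), a call lost without prp43a control replicate 1 or without either heat replicate.

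Ribosome biogenesis, the other process in which PRP43 is known to act, had 31 of 32 members higher and none lower (median log2 fold change 1.28). NUC-L2, a nucleolin, went from 1.34 and 0.478 TPM to 21.95 and 31.1 TPM, AT4G26600, a rRNA methyltransferase-like protein, from 12.54 and 11.2 TPM to 97.7 and 95.1 TPM, and RH36, a DEAD-box helicase, from 7.25 and 6.86 TPM to 57.9 and 55.2 TPM. The median difference between the prp43a and wild-type responses over this list was -0.32 on the log2 scale, and no member passed the test of that difference. RNA decay genes rose in 13 of 17 members, led by the exosome subunits RRP4 (1.73) and RRP41 (1.46).

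Of 260 nuclear members described as ribosomal proteins, 98 rose (37.7%), 86 fell (33.1%) and 76 were not called, with a median log2 fold change of 0.03. These shares lie near the 43.1% higher and 27% lower of all genes tested. Of the 260, 6 reached 1 TPM in the heat pair alone. Median-of-ratios scaling, which moves the median of all genes tested from 0.28 to -0.01, gave 57 higher and 129 lower (median -0.28). The list median thus lay below that of all genes under both scalings, while the sign of the family's own change depends on the scaling. The list mixes cytosolic and organellar ribosomes, and its highest members, AT2G07734 and RPS7_1, are among the mitochondrial copies described above. Their promoters resembled those of ribosome biogenesis in one respect: site II stood in 128 of 260 and in 16 of 32 respectively, and the telo-box (AAACCCTA or its other strand) in 15.8% and 21.9%, beside 3.65% of all promoters.

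The response differed between classes of intron number, which were not tested against each other. Members without introns had a median log2 fold change of 0.18, with 38.6% higher and 30.5% lower, and members with at least 10 introns a median of 0.40, with 50.7% higher and 23.04% lower. In wild type the medians of those classes were 0.11 and 0.40. The median difference between the genotypes' responses was 0.05 for genes without introns and -0.0025 for those with at least 10. Whole-gene TPM does not show whether introns were removed.

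Genes for the synthesis of glucosinolates, sulfur-containing defence compounds, fell; the compounds themselves were not measured. Of 24 glucosinolate genes, 23 fell and 1 was not called, with a median log2 fold change of -3.01, the lowest of the lists. Of the 24, 2 reached 1 TPM in the control pair alone. MAM1, which elongates methionine for aliphatic glucosinolates, went from 221 and 239 TPM to 7.31 and 3.11 TPM (log2 fold change -5.30, SE 0.258, limma adjusted p = 6.79e-08). CYP79F1 and CYP83A1, the next enzymes of the aliphatic branch, went from 72.4 and 73.5 TPM to 1.24 and 0.7300 TPM and from 218 and 197 TPM to 5.31 and 5.42 TPM. The regulators MYB28 and MYB29 had log2 fold changes of -3.03 and -3.92. In the indolic branch CYP79B2 was not called, at 19.3 and 18.1 TPM in control and 9.86 and 14.3 TPM after heat, and CYP79B3 fell by less than the aliphatic enzymes, at -1.87.

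Flavonoid genes fell in 8 of 11 members and rose in 2. Of the 11, 4 reached 1 TPM in the control pair alone and 1 in the heat pair alone. DFR, which opens the anthocyanin branch, had 15.9 and 13.5 TPM in control and was listed at 0 in both heat libraries, as was GSTF12, a transferase needed for anthocyanin transport, from 7.66 and 8.84 TPM. LDOX, the next anthocyanin enzyme, went from 20.6 and 17.2 TPM to 0.289 and 0 TPM. TT4, the chalcone synthase upstream of both branches, fell by less, from 185 and 151 TPM to 61.2 and 63.8 TPM. PAP1_1, a MYB activator of the pathway, was called higher on few reads, from 0.605 and 0.324 TPM to 3.29 and 1.44 TPM; 1 of the 2 higher calls of the list was lost without either control replicate and both without heat replicate 1.

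Growth genes were mostly lower. Of 14 genes of wall loosening and cellulose synthesis, 11 fell and none rose (median log2 fold change -1.43). Only EXPA8 of the 14 reached 1 TPM in the control pair alone. EXPA8, an expansin, went from 64.9 and 78.03 TPM to 0.612 and 0.3004 TPM and EXPA6 from 109 and 113 TPM to 15.5 and 16.8 TPM, whereas the cellulose synthase gene CESA6 was not called, at 120.1 and 121 TPM in control and 109.9 and 108 TPM after heat. Plasma membrane aquaporins split, with 8 of 13 lower and 3 higher: PIP1A fell from 289.7 and 296 TPM to 45.8 and 45.8 TPM, and PIP2;5 rose from 9.75 and 8.02 TPM to 34.9 and 32.5 TPM.

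Of 27 cell cycle and DNA replication members, 17 fell and 5 rose (median log2 fold change -1.25). The B-type cyclin CYC1BAT went from 15.1 and 16.9 TPM to 0 and 0.436 TPM, TOPII, a topoisomerase, from 17.5 and 17.1 TPM to 0.8100 and 1.19 TPM, and HIK, a kinesin of cell division, from 11.98 and 12.6 TPM to 0.583 and 0.573 TPM. Of the 27 members, 4 reached 1 TPM in the control pair alone, CYC1BAT and HIK among them, so the rule partly fixed their fall. The 5 that rose were the D-type cyclins CYCD3;1 and CYCD3;3, the replication clamps PCNA1 and PCNA2, and MCM5, whose log2 fold changes ran from 0.63 to 1.87. MCM3 of the same helicase ring as MCM5 fell, at -1.25, and CYCB1;1 was not called.

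Of 43 histone members, 30 fell and 6 rose (median log2 fold change -1.11). Among the 43, 2 reached 1 TPM in the heat pair alone. The histone H4 gene AT3G46320 went from 77.1 and 77.5 TPM to 1.89 and 2.47 TPM, and HTA6, an H2A, from 121 and 139 TPM to 6.75 and 9.19 TPM. AT1G09200 and AT5G10400, which encode replication-dependent H3, had log2 fold changes of -3.64 and -3.85, while AT4G40040, an H3.3 gene expressed outside replication, fell by less, at -0.67. Histone genes are near-identical copies in part: 20.4% of the 75-base windows of AT3G46320 occur exactly in another gene. Plant histone messages carry poly(A) tails, unlike most of those of animals, so they can be counted in poly(A)-selected libraries.

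Of 20 clock members, 10 were higher (50%) and 8 lower (40%), beside 43.1% and 27% of all genes tested; 3 of the 20 reached 1 TPM in the heat pair alone. Among those that rose were genes that normally peak toward evening: ELF4, from 2.03 and 0.544 TPM to 96.4 and 82.03 TPM (log2 fold change 5.38), FKF1, from 0.3097 and 0.166 TPM to 21.9 and 26.99 TPM, and TOC1, from 8.73 and 8.18 TPM to 57.9 and 56.9 TPM. LHY and CCA1, which normally peak at dawn, fell, from 36.3 and 30.4 TPM to 2.01 and 2.09 TPM and from 85.3 and 77.8 TPM to 13.7 and 9.799 TPM. AT3G54500, a LNK-family gene with a dawn peak, fell from 266 and 243 TPM to 17.04 and 14.7 TPM. The evening element AAATATCT stood in 6 of 20 promoters of the list and in 4.99% of all.

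Salicylic acid and defence genes gave no common direction: 4 of 15 rose (2 without prp43a heat replicate 2), 4 fell and 7 were not called (median log2 fold change -0.03), or 26.7% in each direction beside 43.1% and 27% of all genes tested. EDS5, a transporter for salicylic acid synthesis, rose from 2.52 and 3.49 TPM to 8.604 and 9.86 TPM, and EDS16, the isochorismate synthase of the same route, fell from 12.6 and 13.8 TPM to 5.02 and 6.94 TPM. NIMIN1 was called higher on few reads, from 0 and 0.576 TPM to 1.301 and 1.92 TPM, and the call was lost without prp43a control replicate 1 (limma adjusted p = 0.162) or without heat replicate 2 (0.126). Of the 15 members, 2 reached 1 TPM in the heat pair alone, NIMIN1 among them, so the rule partly fixed their direction. BGL2 and PR1, markers of salicylic acid signalling, differed more between replicates than between conditions. BGL2 had 0.227 and 5.35 TPM in control and 0.274 and 5.12 TPM after heat.

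DREB2 factors and galactinol genes, which link heat and drought responses, rose in 5 of 6 members, of which 3 reached 1 TPM in the heat pair alone. DREB2C went from 0 and 0.154 TPM to 63.9 and 65.8 TPM (log2 fold change 5.94), DREB2B from 0.215 and 0 TPM to 26.5 and 27.02 TPM and DREB2A from 2.85 and 0.8698 TPM to 18.9 and 19.05 TPM. GolS1, a galactinol synthase and known heat shock factor target, went from 16.6 and 11.9 TPM to 376 and 358 TPM.

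Of 24 abscisic acid and dehydration members, 10 rose, 6 fell and 8 were not called in prp43a. These shares, 41.7% and 25%, lie near the 43.1% and 27% of all genes tested and are no result about the list. In wild type 5 rose and 11 fell, and no difference between the genotypes was tested over the list. The list medians were 0.45 in prp43a and -0.48 in wild type, and the median difference between the responses was 0.66, beside 0.01 over all genes tested. KIN1 and KIN2, cold- and abscisic-acid-induced genes, rose in prp43a from 4.86 and 1.73 TPM to 67.95 and 53.3 TPM and from 21.5 and 13.4 TPM to 233 and 232 TPM. Both also rose in wild type, with log2 fold changes of 3.94 for KIN1 and 3.26 for KIN2, beside 3.93 and 3.70 in prp43a. LTI78 (also RD29A) rose from 14.5 and 10.8 TPM to 75.9 and 85.96 TPM (log2 fold change 2.60, and 1.81 in wild type). P5CS1, a proline synthesis enzyme, fell from 34.7 and 30.6 TPM to 8.87 and 9.38 TPM, and RD22 fell from 257 and 265 TPM to 112 and 77.9 TPM; both also fell in wild type, with log2 fold changes of -2.76 and -1.85.

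The heat response of prp43a differed from that of wild type at 2 genes by the test of the difference itself, 0.0102% of the 19697 tested and 0.0105% of the members, and both are of this list. LTI65 (also RD29B; chromosome 5, TAIR10.1, 21237021 to 21239531), a strictly abscisic-acid-dependent stress gene, had 2.01 and 1.32 TPM in prp43a control and 3.73 and 6.23 TPM in prp43a heat. In wild type it had 28.1 and 34.7 TPM in control and 3.53 and 4.55 TPM after heat. It was thus called higher with heat in prp43a (log2 fold change 1.15) and lower in wild type (-2.68), a difference of 3.83 (SE 0.371, limma adjusted p = 0.0129).

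RAB18_2 (AT5G66400, chromosome 5, 26518277 to 26519447), a dehydrin induced by abscisic acid, had 11.7 and 7.91 TPM in prp43a control and 8.19 and 9.504 TPM in prp43a heat, and 79.5 and 102 TPM in wild-type control and 7.04 and 9.75 TPM in wild-type heat. The prp43a groups overlapped and no heat change was called there (log2 fold change -0.12), against -3.29 in wild type, a difference of 3.18 (SE 0.307, limma adjusted p = 0.0129). For both genes the genotypes stood apart in the control libraries and close together after heat. Leaving out any 1 of the 8 libraries ended both calls while the differences stayed between 3.523 and 4.135 for LTI65 and between 2.919 and 3.431 for RAB18_2. In those 8 fits limma called no gene at an adjusted p below 0.05, and between 866 and 1612 genes had an unadjusted p below 0.05, beside 1237 with all libraries.

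In wild type 8227 of the same members rose (43.3%) and 5258 fell (27.7%), 71% in either direction, beside 42.4%, 27.6% and 70% of all genes tested. Of the members that rose in prp43a, 7575 (89.9%) also rose in wild type, where they made up 92.1% of the members that rose. Of those that fell, 4654 (88.9%) also fell in wild type, 88.5% of the wild-type count. Across members the log2 fold changes correlated at r = 0.965, a description across genes that share libraries, depth and the fitted spread. The median absolute difference between the responses was 0.19, with 437 members above 1 and 40 above 2. Neither value shows that the responses are equal, since with 2 libraries per group only large differences can pass the test.

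**Figure D4:**
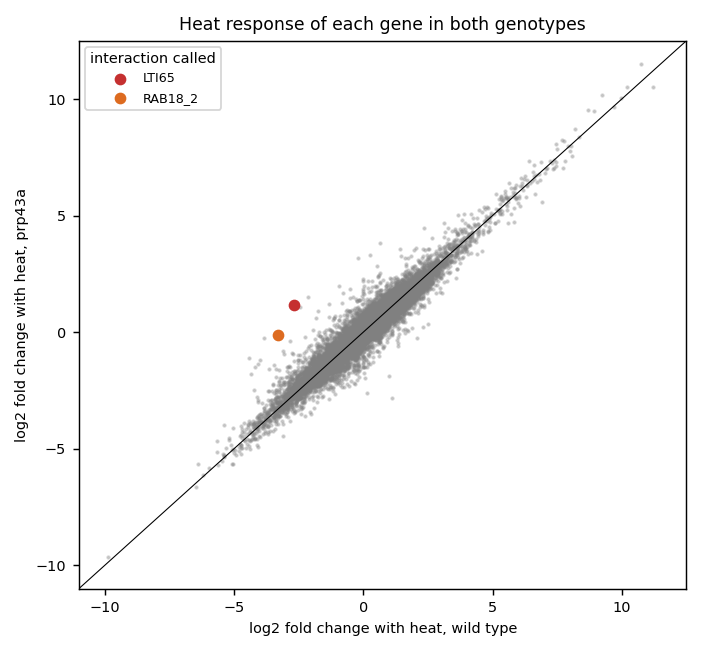
Log2 fold change with heat of each member in wild type (x axis) and in prp43a (y axis), on the log2(TPM + 1) scale; the line marks equal responses. Points gather along the line (r = 0.965 across genes), and LTI65 (red) and RAB18_2 (orange), the 2 genes called for a difference, lie above it.

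Besides LTI65, 6 members were called in opposite directions in the 2 genotypes, and none of the 6 passed the test of the difference. TSPO, an abscisic-acid-induced membrane protein, went from 0.965 and 0.344 TPM to 3.11 and 1.91 TPM in prp43a and from 4.47 and 14.4 TPM to 0.6996 and 0.702 TPM in wild type (difference 3.52, limma adjusted p = 0.326). AT2G41190, annotated as an amino acid transporter, went from 4.32 and 4.62 TPM to 12.3 and 11.6 TPM in prp43a and from 20.7 and 19.6 TPM to 12.4 and 9.57 TPM in wild type (difference 2.07, limma adjusted p = 0.0539). The others, AT1G11050, AT2G30540, CYP706A2 and NHL3, had differences from -1.44 for AT2G30540 to 2.55 for CYP706A2, a gene with 55.5% of its 75-base windows in another gene.

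The remaining genes among the 10 largest falls came from several functions. AT5G48490, annotated as a lipid transfer protein, had 109.6 and 88.7 TPM in control and was listed at 0 in both heat libraries. It thus entered through the control pair alone, and the rule partly fixed its fall. ELP, an extensin-like protein, went from 725 and 777 TPM to 10.9 and 13.7 TPM, and FRO6, a ferric reductase of green tissue, from 149 and 137 TPM to 1.91 and 1.73 TPM. AT5G16030, for which no role is given here, went from 201 and 214 TPM to 3.14 and 3.08 TPM and AT4G10060, annotated as a beta-glucosidase, from 80.3 and 85.9 TPM to 0.734 and 1.44 TPM. On the rising side GASA1, a gibberellin-regulated peptide gene, was the third most abundant transcript after heat, with 364 and 439 TPM in control and 7392 and 8317 TPM in heat. The 100 most abundant transcripts took 32.6% and 32.1% of TPM in the control libraries and 20.7% and 21.5% after heat.

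**Figure D5:**
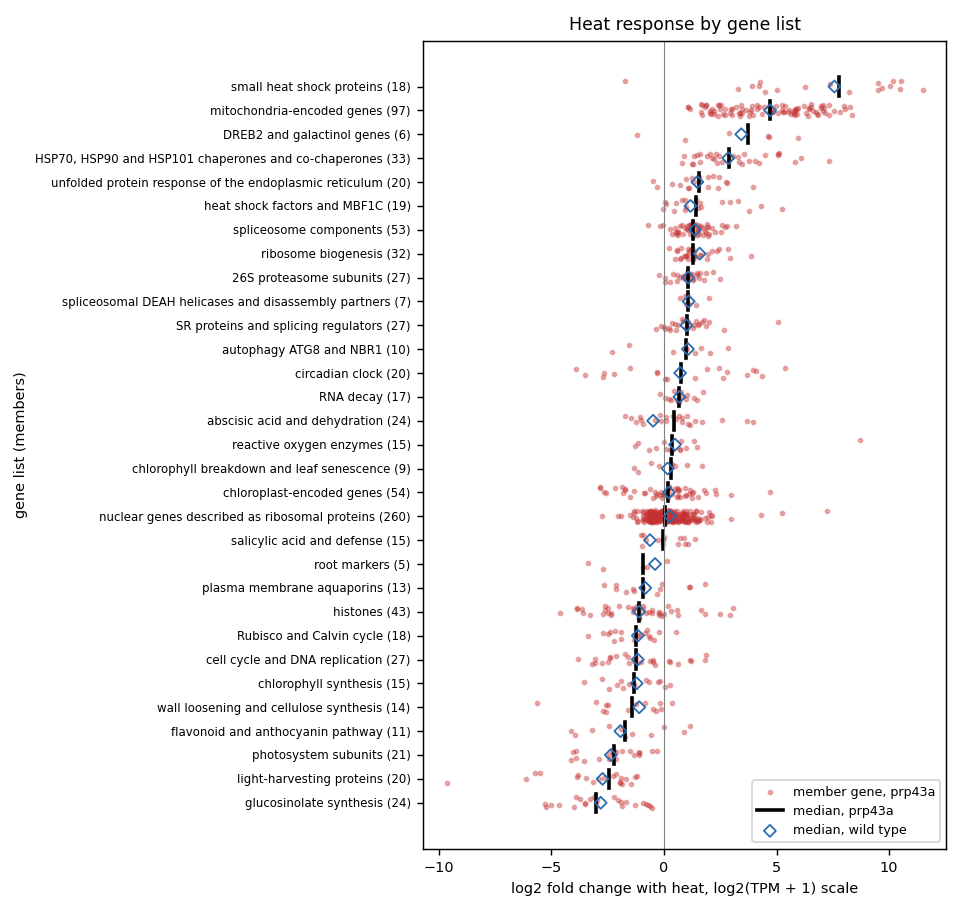
Log2 fold change with heat (x axis, log2(TPM + 1) scale) of the members of each gene list in prp43a (red points, spread vertically for sight), with the prp43a median (black bar) and the wild-type median (blue diamond); member counts are in brackets. Small heat shock proteins have the highest median (7.80) and glucosinolate genes the lowest (-3.01), and the diamond and the bar stand furthest apart for the abscisic acid list.

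Markers of organs were read beside these results. Of 9 root markers 5 were members, of which 4 fell (80%, beside 27% of all genes tested). Of the 5, 2 reached 1 TPM in the control pair alone, CASP1 among them, so the rule partly fixed their direction. The summed TPM of the 9 was 0.134% and 0.118% in control and 0.0139% and 0.0141% after heat. Most of it was PYK10, a root and hypocotyl beta-glucosidase, which went from 1298 and 1147 TPM to 115 and 117 TPM. CASP1, the Casparian strip protein of the endodermis, had 7.798 and 3.97 TPM in control and was listed at 0 in both heat libraries, while SCR, a regulator of that tissue, was not called at 17.6 and 17.3 TPM in control and 19.4 and 19.1 TPM after heat. The calls of SHR and SHV2, at a few TPM, were lost without prp43a control replicate 2, which left 2 markers lower. Of 11 seed maturation markers only SESA1 was a member, through the heat pair alone, listed at 0 in both control libraries and at 9.22 and 1.699 TPM after heat. Whether a changed share of root tissue contributes to the falls above was not tested.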

How the data were processed

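RNA of whole seedlings was read as paired 75-base reads from stranded, poly(A)-selected libraries, per the labels' protocols. The authors deposited 1 table of TPM values per gene and library; TAIR10 is named in the submitters' processing notes, and the aligner and counter were not given in the sources used here. TPM is a share, so a rise of abundant transcripts lowers all others and a fall of abundant transcripts raises them. TPM values multiplied by exon length and a factor per library came out as whole reads (within 0.05) for 99.2% of 126892 low values, which gave the depth per library. Whether the unit is a read or a pair is not known.

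Values were tested as log2(TPM + 1), which understates changes of low genes, with limma 3.58.1 in R 4.3.3: a moderated test with a mean-variance trend over all 8 libraries (4 residual degrees of freedom), on 19697 genes with at least 1 TPM in at least 2 libraries, with Benjamini-Hochberg adjustment over all of them and calls at 0.05. The procedure was also run on simulated data. Far fewer genes changed there than with heat here, so that run lends no support to these calls. Tables were prepared in Python 3.11.15. The labels call the replicates biological without naming separate cultures, so p-values measure the spread between these libraries.

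The members and gene lists were chosen with earlier results of these data known. Named by rule were the 10 largest rises and falls among called members that averaged 10 TPM or more in either prp43a group and did not overlap, up to 8 genes with a different response in wild type, up to 4 called genes of each list, and both helicase loci. Other named genes were chosen after their values were seen. Promoters (250 bases), exons and shared 75-base windows come from the RefSeq TAIR10.1 genome, whose annotation matched 27445 of 27655 gene rows; no model was matched for organelle members. Alternatives were other filters, pseudocounts, scalings, a fit of recovered reads (voom), a replicate block, the 4 prp43a libraries alone and each library left out.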

Additional observations from a re-analysis of the deposited data

Results flagged for a closer look

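The heat responses of 2 genes were marked for a closer look because prp43a and wild type differed by the test of the difference itself. For LTI65 the prp43a response minus the wild-type response was 3.83 on the log2(TPM + 1) scale, and for RAB18_2 it was 3.18. In both, the wild-type control libraries stood above the prp43a control libraries while the heat libraries of both genotypes lay below 10 TPM. Every call was lost when any 1 library was left out, with limma adjusted p from 0.0806 to 0.213 for LTI65 and from 0.0634 to 0.343 for RAB18_2. By mean TPM, LTI65 stood at 31.4 in wild-type control and 1.67 in prp43a control, and at 4.04 and 4.98 after heat. RAB18_2 stood at 90.7 and 9.81 in control and at 8.40 and 8.85 after heat, in the same order of genotypes. The genotypes thus lay apart in the control libraries, and why they did was not tested.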

How the results depend on the processing

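The count of genes whose heat response differed between genotypes, 2, was 0 without a filter on low values, with a pseudocount of 0.1, without a mean-variance trend and in every fit without 1 library (0 to 0). It was 4 with a filter at 5 TPM and 7 with a pseudocount of 5. At an unadjusted p below 0.05 limma gave 1491, 1228 and 1229 genes in the first 3 of these fits. The replicate block gave 4, and 13746 genes for heat in prp43a beside 13813; replicate numbers did not pair libraries, since their deviations correlated at r = -0.03 to 0.03. Heat in prp43a gave 12085 to 13952 calls over all alternatives and heat in wild type 12213 to 13818. Of 137 genes named by rule, 132 kept the direction and call of their heat response in prp43a in every alternative run on them. SAG13, AT4G11910 (a senescence list gene), NIMIN1, SHV2 and SHR lost the call in some, and none changed direction. Single genes named outside the rule (CRT3, PAE2, TIM, GSA2, PTB3) were followed only through the counts of their lists. Among 1216 counts of list members, 57 moved by over 1.5 times, most of them counts of 5 or fewer; those of organelle genes went to 0 with recovered reads because no exon length was matched to their rows. At this depth, genes of a few TPM rest on few reads, which limits what can be said of them.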
